A study of Homo sapiens with 6 samples.

Results

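RPL13A encodes ribosomal protein L13a of the large ribosomal subunit, and its introns carry small nucleolar RNAs (snoRNAs). The places of this gene and of SNORD32A, SNORD33 and SNORD35A that crosslinked to GAPDH were collected from 3 deposited lists of CLIP peaks, by taking every entry that carried 1 of these 4 gene symbols. They made up 21 entries and 12 of the 1316 peaks, with 2 of 337 peaks in galactose, 5 of 484 under low glucose and 5 of 495 under normal glucose. Merged across the lists, the 12 peaks formed 7 of 951 regions. CLIP-seq recovers RNA that ultraviolet light has crosslinked to a protein. Here the protein was GAPDH, an enzyme of glycolysis, precipitated with a polyclonal antibody from MOLM-13, a cell line derived from human acute myeloid leukaemia. Culture was in galactose in place of glucose, in low glucose or in normal glucose, to ask whether the contacts of GAPDH change with the sugar supplied. Of the 6 samples, 2 belonged to each condition, and the authors had joined both into a single list per condition. The lists give positions and gene names with no read counts, so each condition has 1 value, no spread between replicates can be given, and a place missing from a list cannot be told apart from a place with too few reads. No test between conditions was possible.

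Box C/D snoRNAs are short RNAs that guide the methylation of other RNAs, mostly ribosomal RNA, at the sugar of chosen nucleotides. They are named after the C box near their 5' end and the D box near their 3' end, which come together in the folded RNA and are held by a protein core. In human cells most of them are cut from the introns of host genes after splicing, so that RPL13A transcription yields both a messenger RNA and several snoRNAs. The L13a protein itself was described, with GAPDH, as part of a complex that holds back the translation of inflammatory messenger RNAs in human monocytic cells. In rodent cells the snoRNAs of Rpl13a were linked to the response to lipid overload.

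RPL13A lies on the plus strand of chromosome 19 (hg38). Its main GENCODE transcript, ENST00000391857.9, spans 4701 nt (49487608 to 49492308) in 8 exons. A total of 4 snoRNA genes lie inside it, SNORD32A in intron 2, SNORD33 in intron 4, SNORD34 in intron 5 and SNORD35A in intron 6. SNORD32A guides sites in both the small-subunit and the large-subunit ribosomal RNA, SNORD33 a site in the small-subunit RNA, and SNORD34 and SNORD35A sites in the large-subunit RNA. The sequences of the genes are printed from hg38 because called sites fall next to the D box of SNORD32A, SNORD33 and SNORD35A. SNORD34, which lies under no peak, is printed with them. The capitals mark the first TGATG, the core of the C box, and the last CTGA, the D box.
SNORD32A: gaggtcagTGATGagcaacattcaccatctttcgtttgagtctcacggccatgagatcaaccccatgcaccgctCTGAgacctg
SNORD33: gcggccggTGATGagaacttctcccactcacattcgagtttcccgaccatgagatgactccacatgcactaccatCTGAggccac
SNORD34: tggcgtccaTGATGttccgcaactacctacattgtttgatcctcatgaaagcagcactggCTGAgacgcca
SNORD35A: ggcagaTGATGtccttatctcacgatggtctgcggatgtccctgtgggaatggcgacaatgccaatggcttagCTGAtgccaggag
Their positions are chr19:49489965-49490048 for SNORD32A (84 nt), chr19:49490615-49490699 for SNORD33 (85 nt), chr19:49490904-49490974 for SNORD34 (71 nt) and chr19:49491175-49491260 for SNORD35A (86 nt). Of 313 GENCODE genes with a SNORD name, 87.9% hold TGATG and 96.8% hold CTGA on their own strand, and 4.79% and 25.2% hold them on the opposite strand. The 2 motifs can overlap in CTGATG, as they do at the D box of SNORD35A.

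The peaks filled a short stretch of the gene. All 12 lay within 1501 nt, from the end of intron 1 to intron 6. Counted along the genome with introns included, this stretch began 2199 nt after the start of the transcript and ended 1001 nt before its end. Intron 1 alone is 2205 nt long and exon 1 is 37 nt. The exon 2 sites of low glucose start at base 8 of that exon, so they lie near the 5' end of the spliced RNA. No peak of any list touched exon 1, which holds the 5'UTR of the main transcript. None touched exons 6 to 8, the last of which holds the 3'UTR. Peaks were placed along the genome, so the low glucose peak of exon 2 runs into intron 1. Exon 1 adjoins exon 2 in the spliced RNA. The paper names the 5'UTR of RPL13a as a GAPDH target. Its RPL13a template for the binding assay holds the bases of the exon 2 sites. Contact with the 5'UTR was not tested here. By the middle of the peak, 6 peaks lay on a snoRNA gene, 6 in a coding exon and none in the remaining intron. The galactose list had 1 peak of each kind, the low glucose list 2 on snoRNA genes and 3 in coding exons, and the normal glucose list 3 on snoRNA genes and 2 in coding exons.

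**Figure D1:**
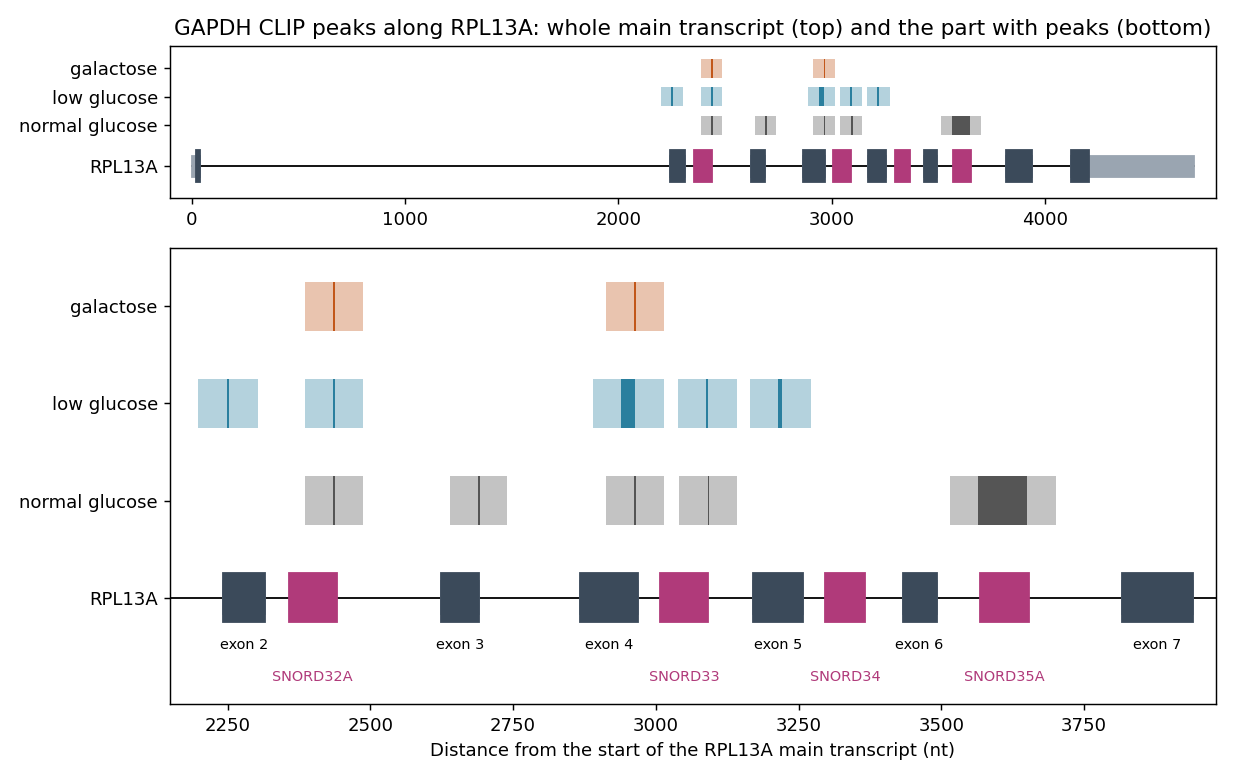
Peaks along RPL13A by list, against the distance from the start of the main transcript in nt of the genome, introns included. The upper panel shows the whole transcript and the lower panel the part with peaks. Pale bars are deposited peaks and dark bars the span of called sites inside them (drawn at least 3 nt wide in the lower and 8 nt wide in the upper panel); dark blue boxes are coding exons, grey boxes UTRs and magenta boxes snoRNA genes. The peaks at SNORD32A and exon 4 stand in all 3 lists, and SNORD34 lies under no peak.

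Each peak was read as a called crosslink site, or several joined sites, extended on both sides. The narrowest peaks of the 3 lists had the width of 1 site with 50 nt on each side, so 50 nt were taken off each side to obtain the span of called sites. The first and last base of a span are then themselves called sites. This reading was inferred from the widths, and for isolated sites also from the methods. The methods do not describe an extension of joined sites. Because of the extension, a peak also covers neighbouring sequence. Over the 12 peaks and their 1334 nt, 28.3% of bases lay in snoRNA genes, 29.2% in exons and 42.6% in other intron sequence. Bases under a peak in more than 1 list were counted once for each list. The main transcript is made up of 6.93% snoRNA genes, 24% exons and 69.1% other intron. The share in exons was 27.6% in galactose, 41.8% under low glucose and 18.1% under normal glucose. The share in snoRNA genes was 30.5% in galactose, 21.4% under low glucose and 33.7% under normal glucose.

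**Figure D2:**
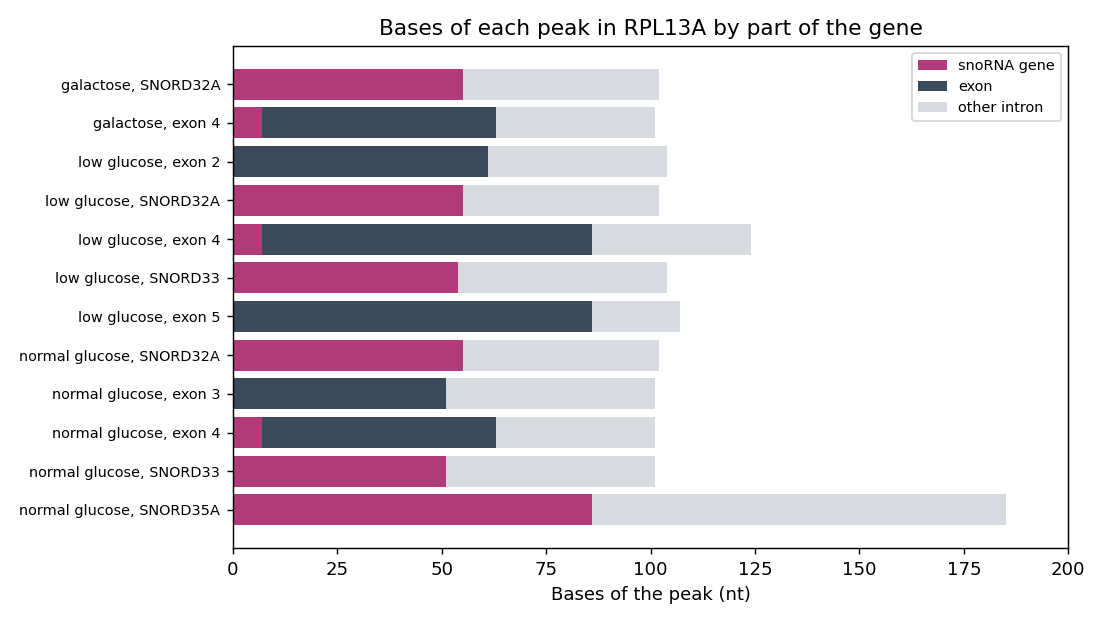
Bases (nt) of each of the 12 peaks in snoRNA genes, exons and other intron sequence, named by list and by the part that holds the called sites. The exon 4 peaks reach only 7 nt into SNORD33, and the SNORD35A peak of normal glucose is the widest of the 12 at 185 nt.

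SNORD32A carried the same peak in all 3 media. It ran over chr19:49489994-49490095 with identical ends in the 3 lists, and covered 55 of the 84 nt of the snoRNA gene (65.5%). Its 2 adjoining sites, 49490044 and 49490045, are bases 80 and 81 of SNORD32A and come 2 and 3 nt after the D box. The sequence around them is shown with the sites in capitals, to place them after the ctga of the D box.
SNORD32A sites: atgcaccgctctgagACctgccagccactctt
The position lies in an intron of 10 of the 22 annotated RPL13A transcripts and in an exon of 8 non-coding ones, and in the 3'UTR of 1. The unspliced host transcript and the snoRNA share these bases, so that they cannot be told apart by position.

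SNORD33 was named by 5 entries, but only 2 of the peaks behind them had their sites in the snoRNA. These lay at its 3' end, in low glucose (chr19:49490646-49490749) and in normal glucose (chr19:49490649-49490749). The low glucose sites spanned bases 82 to 85 of the gene, and the single normal glucose site was base 85, its last base. The galactose list had no peak there. Both spans end 6 nt after the D box, as the capitals show.
SNORD33 sites, low glucose: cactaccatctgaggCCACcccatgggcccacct
SNORD33 site, normal glucose: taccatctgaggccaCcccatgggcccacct
The other 3 entries for SNORD33, 1 in each list, came from the peak whose sites are in exon 4. This peak reached the first 7 nt of SNORD33 through its extension, and its last site lay 44 nt before the snoRNA gene. Counted with that peak, the lists covered 7 nt of SNORD33 in galactose, 61 nt under low glucose and 58 nt under normal glucose. Counted by the span of called sites, they covered 0, 4 and 1 nt.

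SNORD35A was named in normal glucose only. Its peak (chr19:49491123-49491307) covered the whole gene, and its span of 85 nt began 2 nt before the first base of the gene and ended at base 83, 6 nt after the D box. The outer sites therefore lay at the 2 ends of the snoRNA, as the windows around them show.
SNORD35A first site: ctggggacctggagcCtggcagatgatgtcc
SNORD35A last site: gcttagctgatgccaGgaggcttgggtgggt
No entry for SNORD35A was found in the galactose or low glucose list. How many further sites lay between the outer ones is not given. SNORD34, the remaining snoRNA of the gene, was overlapped by no peak, and the nearest, the exon 5 peak of low glucose, ended 25 nt before it.

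The called sites at the snoRNAs of RPL13A lay near the 3' end of the RNA, as did those of most other box C/D snoRNAs in the lists. Over the 3 lists, 34 pairs of a peak and a SNORD gene were counted, for 21 genes, and in 27 pairs (79.4%) a called site lay within 5 nt of the 3' end of the gene. For the members this held in 6 of 9 pairs, the other 3 being the exon 4 peak, and without the members it held in 21 of 25 (84%). By list, it held in 6 of 7 galactose pairs, 7 of 9 low glucose pairs and 14 of 18 normal glucose pairs. A site within 5 nt of the 5' end, as at SNORD35A, was listed in 1 of 7 galactose pairs, 0 of 9 low glucose pairs and 9 of 18 normal glucose pairs. Pairs that share a peak or a snoRNA are not independent of each other.

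The distance from the D box took few values. In 33 pairs the gene held CTGA, and an outer site of the span lay exactly 6 nt after the last CTGA in 19 of them, from 14 of 20 snoRNAs, and 3 or 6 nt after it in 26. In the members the last site of the span lay 6 nt after the D box at SNORD33 in low and normal glucose and at SNORD35A in normal glucose. It lay 3 nt after the D box at SNORD32A in each list. The first site lay 2 nt after the D box at SNORD32A in each list and 3 nt after it at SNORD33 in low glucose. This distance was looked at only once the positions were known.

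**Figure D3:**
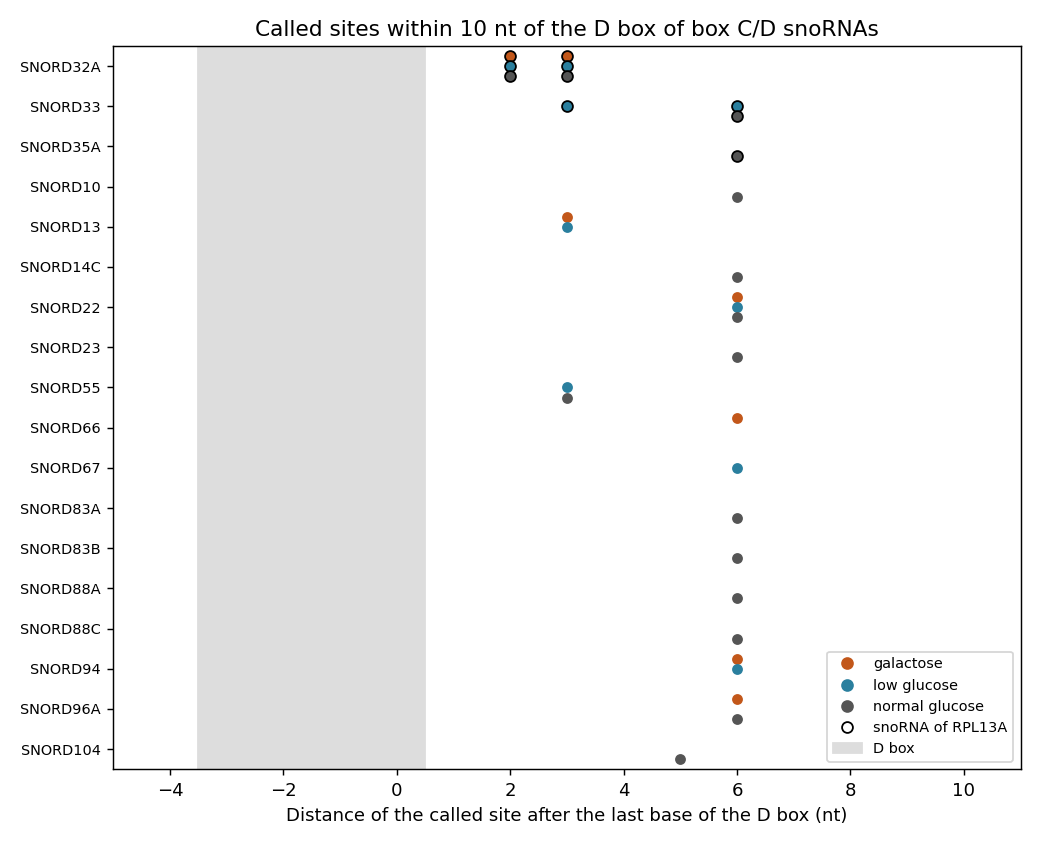
Outer called sites within 10 nt of the D box (grey band) of box C/D snoRNAs, against their distance in nt after its last base, coloured by list. Points ringed in black are the snoRNAs of RPL13A, whose sites lie 2 to 6 nt after the D box, against 3 to 6 nt in the other snoRNAs shown.

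In the coding exons, exon 4 held the region found in every medium. The peak chr19:49490521-49490621 was identical in galactose and in normal glucose, with a single site at 49490571, base 97 of the 102 nt exon and 5 nt before its end. The low glucose peak (chr19:49490498-49490621) ended at the same base and began 23 nt earlier, with sites from base 74 to base 97 of the exon. The base is coding in 6 of the 22 transcripts. The windows are shown with the single site and with the low glucose span in capitals, and the exon ends at the last base before gtgagc.
Exon 4 site, galactose and normal glucose: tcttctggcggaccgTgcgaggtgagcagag
Exon 4 span, low glucose: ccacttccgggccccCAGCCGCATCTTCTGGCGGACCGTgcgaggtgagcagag

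The other coding peaks stood in a single list each. In low glucose, exon 2 had a peak (chr19:49489807-49489910) with sites from 49489857 to 49489860, starting at base 8 of the exon, and exon 5 had another (chr19:49490773-49490879) with sites from 49490823 to 49490829, starting at base 45 of the exon. The exon 2 sites are coding in 6 of the 22 transcripts and lie in the 5'UTR of 1. In normal glucose, exon 3 had a peak (chr19:49490247-49490347) whose single site, 49490297, is the last base of the exon. It is shown because the capital is followed directly by the first bases of intron 3.
Exon 3 site, normal glucose: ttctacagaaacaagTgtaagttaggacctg
Of the bases of this peak, 51 lay in the exon and 50 in the intron. Across the 3 lists, 324 peaks had their span in an exon of a coding gene other than the last. Of these, 21 (6.48%) had their last site within 5 nt of the exon end. The exon 3 peak and the 3 exon 4 peaks were 4 of these 21, and the exon 4 peaks share the same last site.

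The 7 regions differed in the lists that held them. Those of SNORD32A and exon 4 were in all 3 lists, the 3' end of SNORD33 was in low and normal glucose, exons 2 and 5 were in low glucose alone, and exon 3 and SNORD35A in normal glucose alone. In the whole series 11.0% of regions were in all 3 lists, 15.7% in 2 lists and 73.3% in a single list, against 2, 1 and 4 of the 7 regions of RPL13A, too few to set them apart from that background. No region of RPL13A was in galactose alone, which held 11.7% of all regions. Both galactose peaks overlapped a peak of low glucose and a peak of normal glucose, while over all genes 57% of galactose peaks met low glucose and 41.2% met normal glucose. Of the low glucose peaks, 2 of 5 met galactose and 3 of 5 met normal glucose, against 39.7% and 27.9% over all genes. Of the normal glucose peaks, 2 of 5 met galactose and 3 of 5 met low glucose, against 28.3% and 27.3%. With so few peaks these shares are a description. RPL13A had 7 regions, and 4 of the 947 genes with a peak had more, whereas 80.7% had 1.

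The base before the site differed between the lists when starts were counted from 1. RNase T1, used to trim the RNA, cuts after G. Of single-site peaks with a single annotated strand, 24.3% in galactose, 26.1% under low glucose and 62.8% under normal glucose had a G directly before the site. With starts counted from 0, these shares were 27.2% for galactose, 24.6% for low glucose and 24.1% for normal glucose. The difference then stood at the site itself, a G in 27.8%, 24.1% and 47.7% in the same order. Counted from 1, the share before the site in normal glucose was 56.8% for genes on the plus strand and 69.3% for genes on the minus strand. Counted from 0, the strands differed, with G at the site itself in 28.1% on plus and 69.3% on minus. Among the members, 4 peaks had a single site. The exon 4 site in galactose and in normal glucose and the exon 3 site in normal glucose followed a G, while the SNORD33 site in normal glucose followed an A. The first sites at SNORD32A, at exon 2 and at the 3' end of SNORD33 in low glucose also followed a G, while those at exons 4 and 5 in low glucose and at SNORD35A in normal glucose followed a C. The part of this in the differences between the lists was not tested.

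The exonic and the snoRNA peaks differed in how often their sequence recurs in the genome. No 30-nt stretch of the SNORD32A peak, of either peak at the 3' end of SNORD33 or of the SNORD35A peak was found at a second place of hg38. Of the exonic peaks, 48% of such stretches recurred for exon 2, 27.8% for exon 3, 31.9% for exon 4 in galactose and normal glucose, 38.9% for exon 4 in low glucose and 51.3% for exon 5. These shares were taken over whole peaks, with their intron flanks. Intron outside the snoRNA genes made up from 19.6% of the exon 5 peak to 49.5% of the exon 3 peak. The share for the exon sequence alone was not counted, so the values do not give how often it recurs. The most frequent stretch occurred at 10 places for exon 2, 11 for exon 3, 4 for exon 4 and 6 for exon 5. Reads of these stretches could have come from a copy, and how such reads were handled was not looked at, since the study keeps its mapping parameters in a separate deposit that was not used here.

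The base composition of the peaks was within that of the lists. A and T made up 26.7% of bases at exon 4 in galactose and normal glucose, the lowest of the 12 peaks, and 49.5% at exon 3 in normal glucose, the highest. The medians over all peaks were 42.6% in galactose, 40.8% under low glucose and 45.5% under normal glucose. The pentamer ATTTA, the core of AU-rich elements, which GAPDH is known to bind, was found on the plus strand of none of the 12 peaks, and on either strand in 11.6%, 11.2% and 11.5% of all peaks in galactose, low glucose and normal glucose. Its absence says only that these letters are not in these windows.

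Among ribosomal protein genes with a snoRNA gene on the same strand inside them, RPL13A had the most regions of those counted. Of 26 others, 21 had a peak in any list, 12 in galactose, 16 under low glucose and 14 under normal glucose. Those 21 had a median of 2 regions and at most 5, reached by RPS2 and RPLP2, against 7 in RPL13A. A region in all 3 lists was found in RPS2 and RPL32 with 1 each, against 2 in RPL13A. The RPS2 region (chr16:1962922-1963022) was identical in the 3 lists, with a single site 1 nt beyond the 3' end of SNORA64. The RPL32 region lay on SNORA7A, with ends that differed between the lists. SNORA64 and SNORA7A belong to the box H/ACA snoRNAs, which guide the conversion of uridine to pseudouridine. Host genes differ in length, in the number of their snoRNAs and in expression, which the lists do not give, so the order of the counts is a description.

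**Figure D4:**
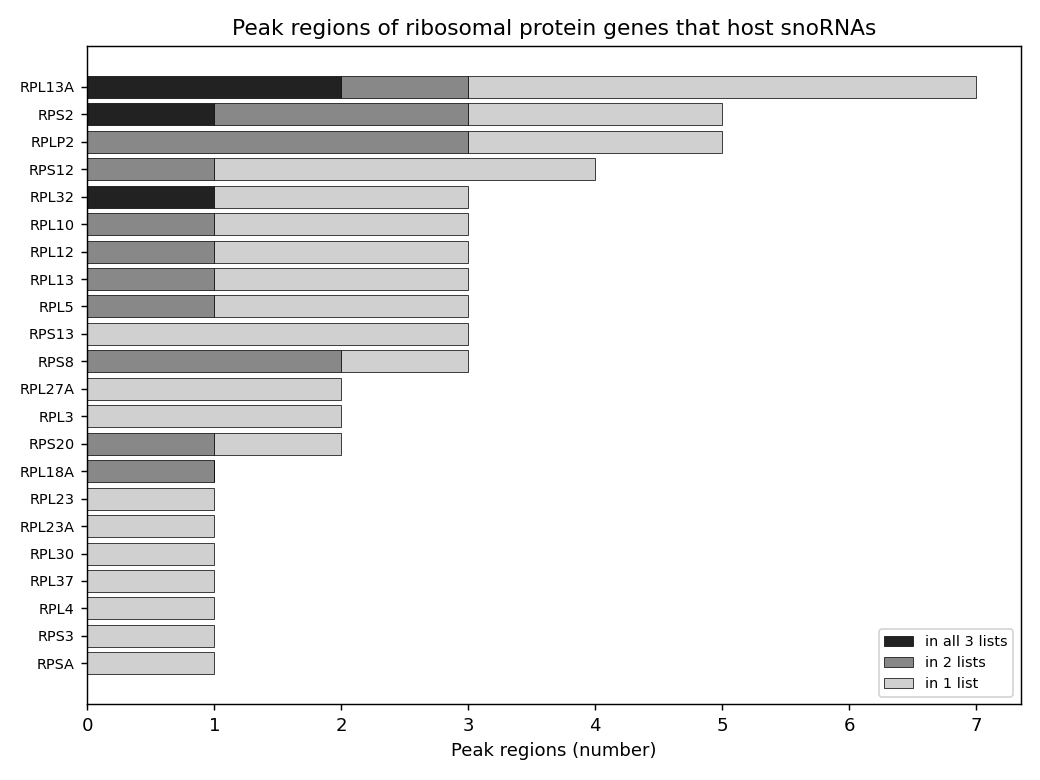
Number of peak regions in RPL13A and in the 21 other ribosomal protein genes counted that host a snoRNA and had a peak, split by whether the region was in 3, 2 or 1 of the lists. RPL13A has 7 regions, 2 of them in all 3 lists, and the next genes, RPS2 and RPLP2, have 5.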

How the data were processed

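GAPDH CLIP-seq of MOLM-13 cells was analysed from 3 deposited peak lists. The labels' extraction text describes total RNA with removal of ribosomal RNA, while the methods describe immunoprecipitation. Trimming with cutadapt, alignment with STAR and the build hg38 (GRCh38) are named in the submitters' processing notes, with no tool version. Per the methods, sites were called with PureCLIP, nearby sites merged and isolated sites extended. The values deposited by the authors are positions, with an Ensembl identifier and a symbol, and no counts, scores or strands, so depth is unknown. An input list was not analysed here.

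Peaks were distinct starts and ends, read as 1-based with both ends included. The members and all lists were chosen with earlier results of these data known. Named genes were the members, other snoRNAs inside RPL13A, and snoRNA-hosting ribosomal protein genes with a region in all 3 lists; others were named after their values were seen. One item is not reported here and was left out of the counts over host genes and over snoRNAs. Peaks overlapping by at least 1 nt were merged into regions. Places came from GENCODE release 44, in the order snoRNA, coding sequence, UTR and intron. Stretches of 30 nt were searched on both strands of the main chromosomes of hg38. The merging and the search were tested on planted data (Python 3.11.15). Alternatives were other overlap rules, entries in place of peaks, other place rules and starts counted from 0.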

Additional observations from a re-analysis of the deposited data

How the results depend on the processing

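The lists hold 1 value per condition and no depth, so no result has a spread or a test, and a missing place says nothing of binding. No paired analysis was possible because the samples of each condition were joined in the deposited lists and no result comes from a test. Of 61 values under an alternative, 41 stayed within 1.5 times the value reported and 20 moved. Counted as entries in place of peaks, there were 4 of 449 for galactose, 8 of 623 for low glucose and 9 of 704 for normal glucose. With peaks within 50 nt of each other joined, low glucose had 3 peaks and no region was in exactly 2 lists (0). With identical ends required, 1 region was in all 3 lists and 7 were in a single list, and 1 peak of galactose met low glucose, 1 of low glucose met galactose, 1 of low glucose met normal glucose and 1 of normal glucose met low glucose. By the place with the most bases, 1 peak, that of SNORD35A, lay in the intron. By the span of called sites, SNORD32A was covered by 2 nt in each list, and SNORD33 by 0, 4 and 1 nt in the same order. With starts counted from 0, the base before the site was G in 0 of the 4 single-site peaks, against 3. Counting only peaks over a snoRNA gene, 11 of the other ribosomal protein host genes had a peak, against 21. Counting starts from 0 moves the called base itself, while every other such change follows from how the alternative counts. The lists have no header that states how starts are counted, so the exact bases given for sites rest on the reading from 1. Galactose had the lowest number under the 3 alternatives run for it, and its list was also the shortest. Low and normal glucose, equal in peaks, had 8 and 9 entries and 3 and 4 joined peaks.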
